A study of Danio rerio with 8 samples.

Results

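SWI/SNF complexes use the energy of ATP to slide or evict nucleosomes and so to open stretches of chromatin. In mammals each complex carries 1 of 2 alternative ATPases, SMARCA4 (BRG1) or SMARCA2 (BRM), on a shared core, and the remaining subunits sort the complexes into the BAF, PBAF and non-canonical BAF classes. Several of their subunit positions are filled by different paralogues in dividing progenitors and in mature neurons of the mouse, and ARID1A and ARID1B, which define BAF, are recurrently mutated in human neuroblastoma. The genes described here were taken by symbol from a list of 10 zebrafish SWI/SNF subunits. Of these, 6 matched a row among the 14781 genes of the count table: the ATPases smarca2 and smarca4a, the core subunits smarcb1a, smarcd1 and smarce1, and arid2, the DNA-binding subunit that defines PBAF. The other 4 listed subunits, arid1ab, arid1b, smarcc1a and pbrm1, were not analysed here, so the ARID1 subunits of BAF are represented only by the paralogue arid1aa. All 6 matched genes passed the filter on low counts. A second list of 30 further SWI/SNF subunits and paralogues was also used, of which 22 were measured and all 22 tested.

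RNA was sequenced from tumour cells of transgenic zebrafish (Danio rerio), 4 samples per group. The MYCN group held EGFP-positive cells sorted from neuroblastomas of MYCN transgenic fish, and the myrAKT group held mCherry-positive cells sorted from ganglioneuromas of myrAKT transgenic fish; myrAKT is a membrane-anchored, active form of the AKT kinase. Neither group received a treatment, and the labels give no age, strain, promoter of the transgene or number of fish per sample, so p-values measure only the spread between these samples, which may be technical. Transgene, tumour type and sorting fluorophore changed together, and their parts in any difference cannot be told apart. Normal sympathetic cells were not analysed here, so each value is read against the other tumour type only.

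Library totals ran from 36984845 to 55827123 counts in MYCN and from 25948623 to 43083220 counts in myrAKT. Dbh and th, the defining enzymes of noradrenergic cells, were abundant in both groups, although lower in myrAKT (log2 fold changes -1.42 and -1.33). Of 8 sympathoadrenal markers 8 fell, beside 38.4% of all tested genes. Their summed level ranged from 8757 to 10310 counts per 1000000 (CPM) in MYCN and from 1803 to 3992 CPM in myrAKT. Markers of other cells were far higher in myrAKT: the summed level of 7 leukocyte genes ranged from 314.1 to 1021 CPM in MYCN and from 14270 to 18020 CPM in myrAKT, and that of 7 endothelial genes from 5.61 to 15.1 CPM and from 327.4 to 501 CPM. Of 7 erythroid genes 6 were tested and summed to between 28.2 and 121 CPM in MYCN and between 3308 and 7846 CPM in myrAKT, and 6 kidney tubule genes summed to between 8.78 and 29.2 CPM and between 965.6 and 3451 CPM. The summed level of 9 genes of dividing cells was 209 to 448.5 CPM in MYCN and 889.3 to 1595 CPM in myrAKT. No leukocyte, endothelial, kidney or cell-division marker was at 0 in a whole group, and the globin gene ba1 and the neuronal gene gap43 were at 0 in all 8 libraries. The part of these other cells in the SWI/SNF differences was not tested, and in bulk samples fewer cells of a type and less RNA per cell cannot be told apart. MYCN 4 stood apart from the other MYCN libraries in several subunit genes. Values without it are given for each subunit gene whose call or direction changed, and for some others. Further values moved without it, such as the actl6a fold change at -0.66 against -0.83. The difference in the smarcd3b to smarcd1 log2 ratio was 0.055 without it, against -0.0061.

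The question put to these libraries was how the subunit genes differ between sorted ganglioneuroma and neuroblastoma cells. Among the 6 genes smarca2 rose, smarcd1 and smarce1 fell, and arid2, smarca4a and smarcb1a did not pass the test (edgeR quasi-likelihood test, Benjamini-Hochberg adjusted p under 0.05). That made 3 of 6 genes called, whereas 76.0% of all 12126 tested genes were called. The 1 gene called higher stands beside 37.6% of all tested genes called higher, and the 2 called lower beside 38.4% called lower. Smarcd1 alone changed by more than 2-fold, 1 of 6 genes beside 55.2% of all tested genes. The median log2 fold change of the 6 genes was -0.15 (-0.070 without MYCN 4 and 0.24 with library totals), beside -0.044 over all tested genes. Of the 6 log2 fold changes 5 lay in the interquartile range of all tested genes, which ran from -1.03 to 1.48. All levels below are CPM scaled with trimmed-mean (TMM) factors, and all fold changes are myrAKT minus MYCN on the log2 scale.

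**Figure D1:**
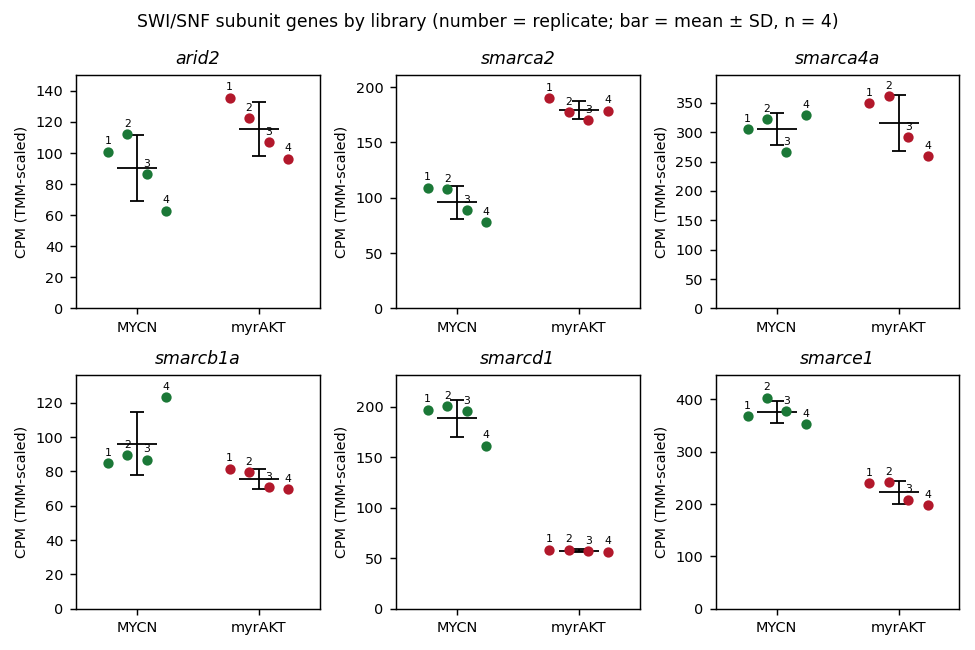
TMM-scaled CPM of 6 SWI/SNF subunit genes (y axis, from 0) in the 4 MYCN and 4 myrAKT libraries, with replicate numbers at the points and bars for the mean ± SD (n = 4). The groups are apart for smarca2, smarcb1a, smarcd1 and smarce1 and overlap for arid2 and smarca4a, and MYCN 4 is the highest library for smarcb1a and the lowest MYCN library for smarcd1.

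The ATPase genes differed in their behaviour. Smarca2, which encodes the BRM-type ATPase, was at 109, 108, 88.6 and 77.7 CPM in MYCN 1 to 4 and at 190, 177, 170 and 179 CPM in myrAKT 1 to 4. All myrAKT libraries lay above all MYCN libraries. The means were 95.8 ± 15.3 CPM (SD, n = 4) in MYCN and 179 ± 8.20 CPM in myrAKT, a log2 fold change of 0.90 ± 0.13 SE (adjusted p = 1.6e-04 by edgeR). Of all tested genes 68.5% had a lower log2 fold change than smarca2, so a rise of this size was common in this comparison. Smarca4a, which encodes the BRG1-type ATPase, was at 305, 322, 267 and 329 CPM in MYCN 1 to 4 and at 350, 361, 291 and 260 CPM in myrAKT 1 to 4. The groups overlapped, and the lowest of all 8 values was that of myrAKT 4. The means were 306 ± 27.9 and 316 ± 48.1 CPM, a log2 fold change of 0.046 ± 0.14 (adjusted p = 0.78 by edgeR) with a 95% interval from -0.27 to 0.36.

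With the library totals used in place of TMM factors, a scaling that takes the median over all tested genes from -0.044 to 0.34, smarca4a passed at 0.43 (adjusted p = 0.010), beside a median shifted in the same direction. Without myrAKT 1 or myrAKT 2 its fold change turned to -0.0067 and -0.030, and without MYCN 3 it was 0.0084, none of which passed. The ratio of smarca2 to smarca4a counts does not depend on the scaling. Its log2 was -1.48, -1.58, -1.59 and -2.08 in MYCN 1 to 4 and -0.88, -1.03, -0.78 and -0.54 in myrAKT 1 to 4. The ratio was higher in every myrAKT library than in any MYCN library, with a difference in means of 0.88, or 1.84-fold (two-sided exact permutation test, p = 0.0286, the smallest p that 4 against 4 allows; 0.0333 adjusted over the 7 paralogue pairs tested). Without MYCN 4, whose ratio was the lowest, the difference was 0.75.

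Smarcd1 encodes a core subunit that in mammals links the complex to transcription factors such as nuclear receptors. It was at 197, 200.5, 195 and 161.5 CPM in MYCN 1 to 4 and at 58.6, 58.5, 56.8 and 56.5 CPM in myrAKT 1 to 4. The myrAKT values lay close together and far below all MYCN values. The means fell from 189 ± 18.2 to 57.6 ± 1.097 CPM (SD, n = 4), a log2 fold change of -1.71 ± 0.11 (adjusted p = 7.1e-07 by edgeR), and 13.4% of tested genes had a lower value. Smarcd3b, a paralogue that in the mouse is known for its role in heart and neural development, was at 22.4, 23.0, 20.6 and 21.3 CPM in MYCN and at 6.38, 4.14, 9.30 and 7.92 CPM in myrAKT. It fell by 1.66 on the log2 scale (SE 0.23, adjusted p = 9.9e-05 by edgeR). The log2 ratio of smarcd3b to smarcd1 was -3.11 ± 0.13 in MYCN and -3.11 ± 0.53 in myrAKT, a difference of -0.0061 (exact permutation p = 1), and its spread in myrAKT was wide, from -3.82 in library 2 to -2.61 in library 3.

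Smarce1 encodes an HMG-box subunit of BAF and PBAF. It was at 368, 403.5, 378 and 353 CPM in MYCN 1 to 4 and at 239, 242, 209 and 198 CPM in myrAKT 1 to 4. The groups were apart, with means of 376 ± 21.2 and 222 ± 22.02 CPM and a log2 fold change of -0.76 ± 0.12 (adjusted p = 1.9e-04 by edgeR). With library totals the fold change was -0.39 (adjusted p = 0.031), a smaller fall that still passed. Smarcb1a is the zebrafish counterpart of the SNF5 core subunit, whose gene is lost in human rhabdoid tumours. It was at 84.7, 89.5, 87.0 and 123.5 CPM in MYCN 1 to 4 and at 81.7, 79.8, 71.1 and 69.7 CPM in myrAKT 1 to 4. The groups did not overlap, but the MYCN mean of 96.2 ± 18.3 CPM was raised by MYCN 4, and the log2 fold change of -0.35 ± 0.15 missed the threshold (adjusted p = 0.052 by edgeR, 95% interval -0.67 to -0.021). Without MYCN 4 the fold change was -0.21 and passed (adjusted p = 0.044), without MYCN 1 it was -0.42 and passed (adjusted p = 0.038), and with library totals it turned to 0.045 (adjusted p = 0.76). Between the groups 4 of the 6 genes did not overlap, beside 72.5% of all tested genes.

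Smarcb1b, the second zebrafish copy of this core subunit, was at 39.7, 42.3, 44.9 and 44.0 CPM in MYCN and at 16.6, 18.9, 19.1 and 19.0 CPM in myrAKT. It fell by 1.22 on the log2 scale (SE 0.11, adjusted p = 6.3e-06 by edgeR). The log2 ratio of smarcb1b to smarcb1a was -1.15 ± 0.23 in MYCN and -2.04 ± 0.20 in myrAKT, with every myrAKT library below every MYCN library (difference -0.88, exact permutation p = 0.0286, 0.0333 adjusted over the pairs). The balance between these copies thus differed by about as much as the balance between the ATPase genes, in a measure that library scaling does not touch. How reads that fit both copies were counted is not given in the sources used here, so values of such copies are uncertain.

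Arid2, the PBAF subunit, was at 101, 112, 86.2 and 63.0 CPM in MYCN 1 to 4 and at 136, 123, 107 and 96.4 CPM in myrAKT 1 to 4. The groups overlapped, since MYCN 2 lay above myrAKT 3 and 4 and MYCN 1 above myrAKT 4. The means were 90.6 ± 21.2 and 115 ± 17.3 CPM, a log2 fold change of 0.35 ± 0.19 (adjusted p = 0.12 by edgeR, 95% interval -0.072 to 0.77). Without MYCN 4 it was 0.20 (adjusted p = 0.22), and with library totals it was 0.71 and passed (adjusted p = 0.013). Arid1aa, an ARID1A gene of BAF, was at 38.2 ± 8.34 CPM in MYCN and 47.0 ± 7.19 CPM in myrAKT, with overlapping groups and a log2 fold change of 0.30 ± 0.18 (adjusted p = 0.16 by edgeR). Its log2 fold change was 0.19 without MYCN 4, and it passed with library totals at 0.67 (adjusted p = 0.011). The log2 ratio of arid2 to arid1aa, a pair formed after the missing symbols were known and given without a test, ran from 1.09 to 1.40 in MYCN and from 1.28 to 1.33 in myrAKT, so the groups overlapped in the balance of these PBAF and BAF genes.

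**Figure D2:**
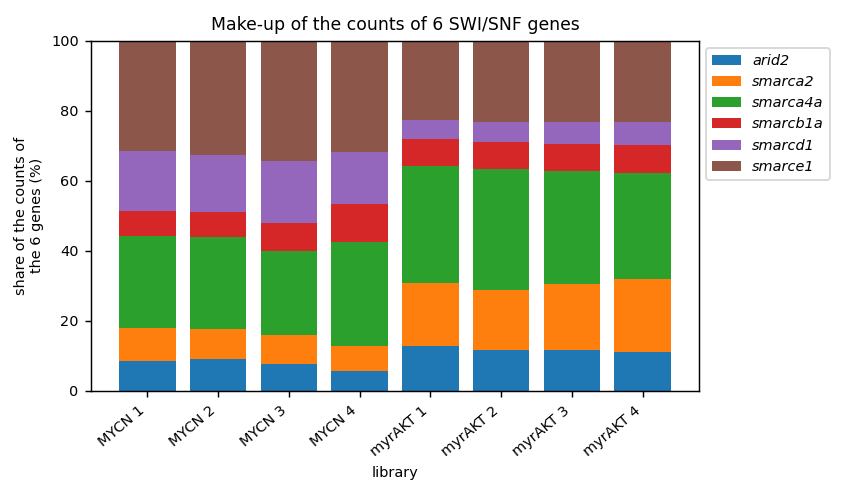
Share of the counts of the 6 genes taken by each gene (stacked, percent, y axis from 0 to 100) in each library. The smarca2 share is larger and the smarcd1 and smarce1 shares smaller in every myrAKT library, and the smarcb1a share overlaps between groups.

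Expressed as shares of the counts that fell on the 6 genes, which library scaling cannot change, the make-up of the set differed between groups. These shares depend on transcript length and are compared only within a gene. Smarca2 took 8.29 ± 1.01% (SD, n = 4) in MYCN and 18.7 ± 1.59% in myrAKT. Smarca4a took 26.5 ± 2.30% and 32.6 ± 1.86%, and arid2 7.81 ± 1.51% and 11.9 ± 0.686%. Smarcd1 took 16.4 ± 1.34% and 6.01 ± 0.503%, and smarce1 32.6 ± 1.22% and 23.0 ± 0.248%. The groups did not overlap for these 5 genes, beside 72.5% of all tested genes in CPM. Shares within other sets of 6 genes were not computed. The smarcb1a share was 8.39 ± 1.86% and 7.84 ± 0.198%, and MYCN 4 at 11.1% stood above the other 7 libraries, which ran from 7.25 to 8.11%. The smarca4a and arid2 shares were higher in every myrAKT library although neither CPM passed; a share depends on the other 5 genes as well as on the gene itself. The 6 genes together made up 0.102 ± 0.0146% of the MYCN and 0.11 ± 0.00703% of the myrAKT library totals. With TMM factors their summed level was 1102 to 1235 CPM in MYCN and 859.3 to 1055 CPM in myrAKT. The sum was thus lower in every myrAKT library with TMM factors but not as a share of library totals.

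Within the myrAKT group, libraries 1 and 2 had higher CPM than libraries 3 and 4 for arid2, smarca4a, smarcb1a, smarcd1 and smarce1, but for smarca2 library 4 lay above library 2. The mki67 level, a marker of dividing cells, was 368 and 443 CPM in myrAKT 1 and 2 and 240.5 and 225.5 CPM in myrAKT 3 and 4. Dbh ran the other way, at 784 and 1131 CPM in myrAKT 1 and 2 and 1418 and 1659 CPM in myrAKT 3 and 4. Markers of other cells split as well. The leukocyte gene cd74a and the erythroid genes hbaa1 and slc4a1a were higher in myrAKT 1 and 2 than in 3 and 4. The endothelial gene stab1 and the kidney genes cdh17 and atp1a1a.4 were lower there. The leukocyte gene lyz and the endothelial gene fli1a did not split this way. The smarcd1 values differed least among these libraries, by 58.6 to 56.5 CPM. The part of dividing cells, of the noradrenergic share or of these other cells in these orders was not tested.

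**Figure D3:**
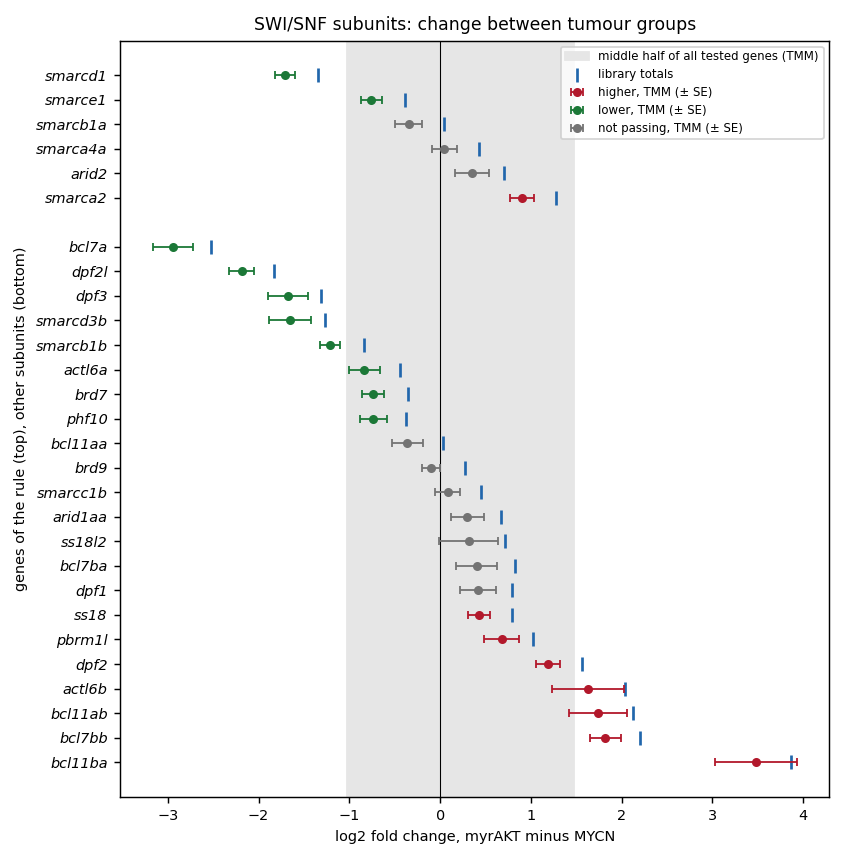
Log2 fold change (myrAKT minus MYCN, x axis) of the 6 genes of the rule (top) and 22 other SWI/SNF subunits (bottom), as points ± SE with TMM factors, coloured by the call, and as blue ticks with library totals. The grey band is the interquartile range of all tested genes, and 18 of the 28 genes lie in it; library totals shift every gene to the right.

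Over all 28 measured SWI/SNF subunits 8 rose, 10 fell and 10 did not pass, so 64.3% were called beside 76.0% of all tested genes. Of the 22 other subunits 7 rose and 8 fell, with a median log2 fold change of 0.19 (0.083 without MYCN 4). With library totals 11 rose and 7 fell and the median was 0.56, under a scaling in which 62.2% of all called genes were higher, compared with 49.5% under TMM. Under that scaling 5507 of 12126 tested genes were higher and 3348 lower. The subunits counted as higher include bcl11ba and bcl11ab, which met the low-count filter only through the myrAKT libraries. A filter of CPM 1 or more in 4 libraries left out bcl11ab but kept bcl11ba. With it 6 other subunits rose and 8 fell, with a median of 0.11, beside 4160 higher and 4354 lower of 11118 tested genes. Counts and medians without both genes were not computed. Both genes lie above the median of 0.19. Without them the middle of the list falls between brd9 (log2 fold change -0.10) and smarcc1b (0.083), so the positive sign of that median is not secure.

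Among the PBAF genes, pbrm1l, a polybromo gene that reads acetylated histones, was at 78.5, 84.6, 80.4 and 45.8 CPM in MYCN and at 125, 125, 107 and 105 CPM in myrAKT. It rose by a log2 fold change of 0.68 ± 0.19 (adjusted p = 0.0084 by edgeR). MYCN 4 lay far below the other MYCN libraries, and the fold change stayed positive and passed in all alternatives run, from 0.50 to 1.02. Brd7, a bromodomain subunit of PBAF, fell by 0.74 (SE 0.12, adjusted p = 3.1e-04 by edgeR) and phf10, a PHD-finger subunit of PBAF, by 0.74 as well (SE 0.15, adjusted p = 0.0014 by edgeR). With library totals phf10 was at -0.38 and no longer passed (adjusted p = 0.11). PBAF genes thus went both ways. Brd9, the bromodomain subunit of non-canonical BAF, was at 40.5, 40.4, 40.5 and 39.7 CPM in MYCN and at 37.3, 38.5, 38.1 and 36.2 CPM in myrAKT. The groups were apart by little and the log2 fold change of -0.10 ± 0.10 did not pass (adjusted p = 0.36 by edgeR, 95% interval -0.32 to 0.12). The log2 ratio of brd9 to brd7 was -1.41 ± 0.20 in MYCN and -0.78 ± 0.030 in myrAKT, a difference of 0.63 with groups apart (exact permutation p = 0.0286, 0.0333 adjusted over the pairs). Smarcc1b, a scaffold subunit, was at 30.3 ± 4.61 and 32.1 ± 2.61 CPM and overlapped between groups (log2 fold change 0.083 ± 0.14, adjusted p = 0.61 by edgeR). Its fold change was -0.018 without MYCN 4, 0.041 without myrAKT 1, 0.14 without MYCN 2 and 0.13 without myrAKT 4, and with library totals it passed at 0.45 (adjusted p = 0.043).

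**Figure D4:**
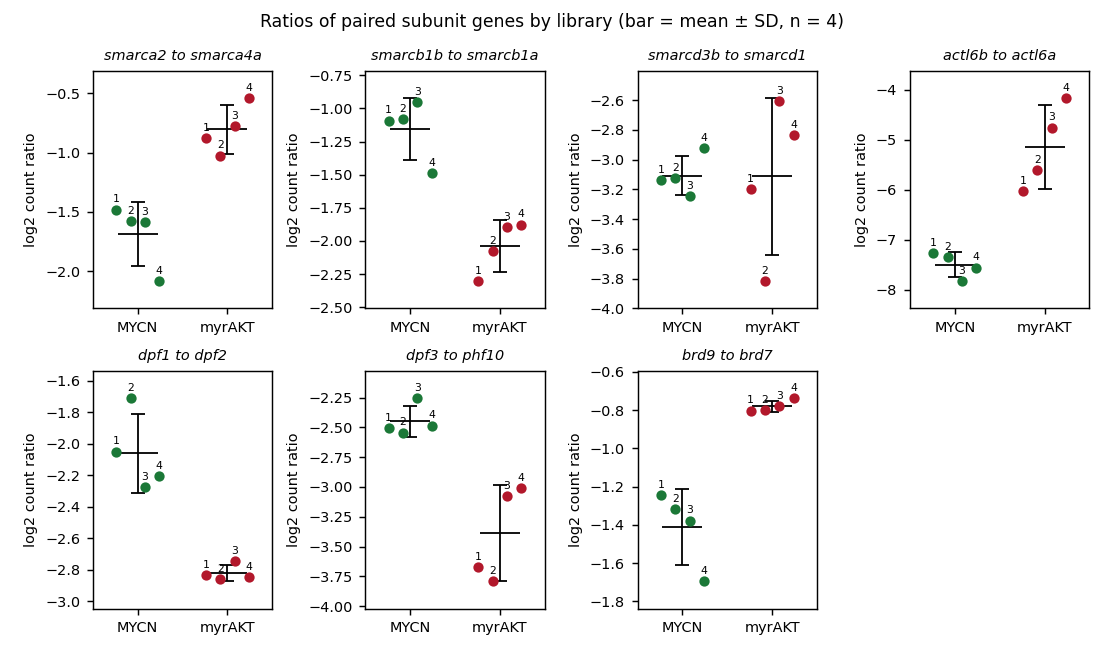
Log2 ratio of counts of 7 pairs of subunit genes (y axis, a separate range per panel, not from 0) in the 4 MYCN and 4 myrAKT libraries, with bars for the mean ± SD (n = 4). The groups are apart in 6 pairs and overlap for smarcd3b to smarcd1. How many of all possible gene ratios are apart was not computed, and 72.5% of all tested genes are apart in CPM.

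In the mouse, maturing neurons replace ACTL6A by ACTL6B, and PHF10 and DPF2 by DPF1 and DPF3, in their BAF complexes. Actl6b was at 0.565, 0.538, 0.419 and 0.744 CPM in MYCN and at 0.939, 1.29, 2.16 and 2.82 CPM in myrAKT. It rose by a log2 fold change of 1.63 ± 0.40 (adjusted p = 0.0042 by edgeR), but on only 17 to 31 counts per MYCN library and 40 to 96 per myrAKT library. Actl6a was at 88.9, 90.0, 98.1 and 143 CPM in MYCN and at 62.4, 63.3, 58.6 and 50.9 CPM in myrAKT, and fell by 0.83 on the log2 scale (SE 0.17, adjusted p = 0.0014 by edgeR). The log2 ratio of actl6b to actl6a was -7.50 ± 0.25 in MYCN and -5.14 ± 0.84 in myrAKT, a difference of 2.36 and the largest of the 7 pairs (exact permutation p = 0.0286, 0.0333 adjusted over the pairs). Within myrAKT both actl6b and dbh rose from library 1 to library 4. The MYCN libraries did not share this order, since actl6b was highest in MYCN 4, where dbh was lowest.

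The balance among the dpf and phf10 genes differed in both directions, depending on the pair. Of the pairs given here, only dpf1 to phf10 was higher in myrAKT. No pair sets dpf1 or dpf3 against dpf2l, and those ratios were not computed. Dpf2l was more abundant than dpf2 in MYCN (means of 93.3 and 15.7 CPM) but less abundant in myrAKT (20.5 and 35.8 CPM). Dpf1 and dpf3 both had a higher log2 fold change than dpf2l (0.42 and -1.68 against -2.19), so the direction depends on the copy used. Dpf3 was at 7.84 ± 1.38 CPM in MYCN and 2.46 ± 0.440 CPM in myrAKT and fell by 1.68 on the log2 scale (SE 0.22, adjusted p = 5.9e-05 by edgeR). Its log2 ratio to phf10 was lower in myrAKT by a difference of -0.94, with groups apart (exact permutation p = 0.0286, 0.0333 adjusted over the pairs). Without MYCN 3 the difference was -0.87 and missed the threshold (exact permutation p = 0.0571), although every myrAKT ratio stayed below the remaining MYCN ratios. Dpf1 was at 3.797 ± 0.712 and 5.05 ± 0.505 CPM (log2 fold change 0.42 ± 0.20, adjusted p = 0.076 by edgeR). The dpf1 call depended on the scaling and the tool, with adjusted p = 0.0081 for library totals, 0.050 (just under the threshold) for upper-quartile factors, 0.047 for DESeq2 size factors and 0.021 for the DESeq2 test. Dpf2 rose from 15.7 ± 1.20 to 35.8 ± 4.22 CPM (log2 fold change 1.19 ± 0.13, adjusted p = 2.1e-05 by edgeR), so that the dpf1 to dpf2 log2 ratio was lower in myrAKT, by a difference of -0.76 (exact permutation p = 0.0286, 0.0333 adjusted over the pairs). Dpf1 to phf10, a pair formed after its values were seen and given without a test, went the other way, with log2 ratios from -3.74 to -3.37 over the MYCN libraries and from -2.43 to -2.26 over the myrAKT libraries. Dpf3 to dpf2, likewise formed late and given without a test, was lower in myrAKT. Its log2 ratios ran from -1.32 to -0.79 in MYCN and from -4.245 to -3.47 in myrAKT. The related dpf2l went the opposite way to dpf2, from 91.3, 103, 103 and 75.6 CPM in MYCN to 19.8, 23.0, 20.1 and 19.0 CPM in myrAKT (log2 fold change -2.19 ± 0.14, adjusted p = 6.3e-07 by edgeR). The log2 ratio of dpf2l to dpf2, a pair chosen after its values were seen, ran from 2.37 to 2.77 in MYCN and from -0.99 to -0.66 in myrAKT. Over the same libraries 8 of 9 tested neuronal markers fell, beside 38.4% of all tested genes, with a median log2 fold change of -2.56. The part of neuronal cells in the actl6a, actl6b and dpf values was not tested.

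The bcl7 genes, which encode small BAF subunits, also split. Bcl7a was at 144.5, 115, 117 and 201 CPM in MYCN and at 16.01, 16.3, 19.1 and 23.6 CPM in myrAKT, the most strongly lowered of the 28 subunits (log2 fold change -2.95 ± 0.22, adjusted p = 1.8e-06 by edgeR). Bcl7bb rose from 7.27 ± 1.43 to 25.7 ± 3.14 CPM (log2 fold change 1.82 ± 0.18, adjusted p = 8.9e-06 by edgeR). Bcl7ba was at 10.5, 10.8, 9.93 and 19.9 CPM in MYCN and at 15.6, 17.3, 17.5 and 17.1 CPM in myrAKT, where MYCN 4 alone lay above the myrAKT values. Its log2 fold change of 0.40 ± 0.23 (adjusted p = 0.13 by edgeR) was 0.69 without MYCN 4 and then passed (adjusted p = 2.6e-04), as it did at 0.82 with library totals (adjusted p = 0.0030). Ss18, whose human counterpart is fused in synovial sarcoma, rose modestly from 84.2 ± 2.45 to 113 ± 15.7 CPM (log2 fold change 0.42 ± 0.12, adjusted p = 0.0098 by edgeR). Ss18l2 was at 8.65 ± 4.39 and 10.8 ± 1.93 CPM and did not pass (log2 fold change 0.31 ± 0.32, adjusted p = 0.40 by edgeR). Without MYCN 4 it passed at 0.69 (adjusted p = 0.025), and without MYCN 1, MYCN 2 or myrAKT 2 it was 0.092, 0.18 and 0.19.

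The bcl11 genes encode zinc-finger proteins that associate with BAF and, in mammals, are also regulators of lymphocytes and neurons. Bcl11ba rose from 0.485 ± 0.362 to 5.48 ± 1.94 CPM (log2 fold change 3.48 ± 0.45, adjusted p = 7.3e-05 by edgeR), and bcl11ab from 0.249 ± 0.0748 to 0.844 ± 0.137 CPM (log2 fold change 1.74 ± 0.32, adjusted p = 6.6e-04 by edgeR). Counts were low in MYCN, at 8 to 43 per library for bcl11ba and 6 to 13 for bcl11ab. In myrAKT they were 119 to 345 and 32 to 38. Both genes met the low-count filter only through the myrAKT libraries, and both are counted among the 7 other subunits that rose. Bcl11aa was at 33.6 ± 6.82 and 26.1 ± 3.50 CPM (log2 fold change -0.36 ± 0.17, adjusted p = 0.081 by edgeR), with overlapping groups, and passed without MYCN 3 at -0.46 (adjusted p = 0.024). Of 7 leukocyte markers 7 also rose between the groups, beside 37.6% of all tested genes, with a median log2 fold change of 4.82. Cd74a was at 6511 ± 1234 against 360 ± 207 CPM and lyz at 4282 ± 342 against 44.02 ± 23.95 CPM. Within the MYCN group the orders were opposite. From MYCN 1 to 4 bcl11ba fell from 1.01 to 0.192 and bcl11ab from 0.306 to 0.144 CPM. Over the same libraries cd74a rose from 179 to 654 and lyz from 26.1 to 78.6 CPM. In myrAKT, bcl11ba and cd74a were both higher in libraries 1 and 2 than in 3 and 4, but bcl11ab and lyz were not. The part of blood cells in the bcl11ba and bcl11ab values was not tested.

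**Figure D5:**
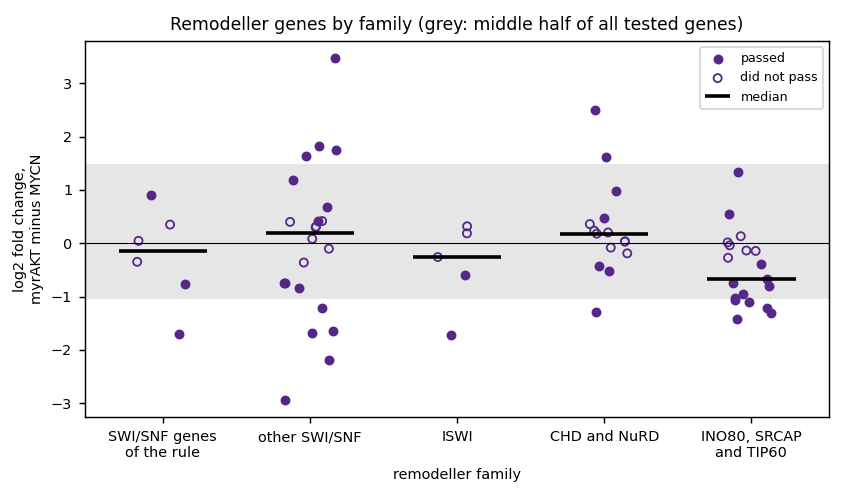
Log2 fold change (myrAKT minus MYCN, y axis) of each tested gene of 5 remodeller lists, filled where it passed and open where it did not, with the list median as a bar and the interquartile range of all tested genes in grey. Horizontal scatter within a list carries no value. The INO80, SRCAP and TIP60 list has the lowest median at -0.67.

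Other ATP-dependent remodellers are given for comparison, by counts and medians only, and each share called stands beside the 76.0% of all tested genes (37.6% higher and 38.4% lower). Of 5 tested ISWI genes 2 fell and 3 did not pass, so 40% were called, with a median log2 fold change of -0.26 that turned to 0.15 with library totals. The 2 genes were chrac1 (-1.72 ± 0.17, adjusted p = 1.2e-05 by edgeR), a histone-fold partner of ISWI, and the ATPase smarca1 (-0.60 ± 0.13, adjusted p = 0.0020 by edgeR), which did not pass with library totals (-0.23, adjusted p = 0.25). With library totals 2 ISWI genes rose and 1 fell, beside 5507 of 12126 tested genes higher and 3348 lower. Of 15 CHD and NuRD genes 4 rose and 3 fell, so 46.7% were called, with a median of 0.18 (0.58 with library totals). The methyl-CpG reader mbd2 rose by a log2 fold change of 2.50, the ATPases chd1l and chd1 by 1.61 and 0.98, and mbd3b fell by 1.29. With library totals 7 CHD and NuRD genes rose and 1 fell, beside the same counts over all tested genes. Of 19 INO80, SRCAP and TIP60 genes 2 rose and 11 fell, so 68.4% were called, with a median of -0.67. With library totals 4 rose and 6 fell and the median was -0.27, beside 5507 of 12126 tested genes higher and 3348 lower. Among the INO80 subunit genes ino80c, ino80e and tfpt fell by 1.21, 1.31 and 1.02, and ino80db rose by 1.33 on the log2 scale. The 28 SWI/SNF genes had a median of 0.064. They include bcl11ba and bcl11ab, which met the low-count filter only through the myrAKT libraries. Without both, the middle of the 28 falls between brd9 (-0.10) and smarca4a (0.046), so the sign of this median is not secure either.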

How the data were processed

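The values are raw read counts in a single table deposited by the authors, 1 row per gene symbol. The submitters' processing notes name HTSeq 0.6.1, TopHat2 2.1.1, Trim Galore 0.4.4 and edgeR, without their settings, and build GRCz10. For annotation, strand setting and multi-mapped reads, nothing is stated in the sources used here. Per the labels' protocols ribosomal RNA was depleted, although the labels name polyA RNA.

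Counts were fitted over all genes with edgeR 4.0.16 (R 4.3.3): filterByExpr by group (12126 genes kept), TMM factors (0.747 to 1.04 in MYCN, 1.1 to 1.22 in myrAKT), robust quasi-likelihood F test, two-sided, Benjamini-Hochberg over all tested genes. SE is the fold change over the root of F. Intervals (95%) use the degrees of freedom of the fit. Log2 count ratios had 0.5 added per gene; of 18 listed pairs 7 had both genes tested. Alternatives were library totals, upper-quartile and DESeq2 factors, other filters, DESeq2 1.42.0, a replicate block and leaving out each library. On simulated counts for 12053 genes of this comparison the test found 49 of 100 genes with a 2-fold and 85 of 100 with a 4-fold change, and called 9 unchanged genes. With so few genes changed, these shares do not measure detection in the data, where 76.0% of tested genes were called. Chi-square per degree of freedom between replicates was at least 21.2 in all 12 pairs, so none was treated as a library deposited more than once; this does not show separate animals.

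Members and lists were chosen with earlier results of these data known. All genes of the 2 SWI/SNF lists are named; from other remodeller lists the 3 smallest adjusted p in the main direction and 1 in the other; from marker lists the 2 most abundant were eligible, with dbh and th. Of 22 CHD and NuRD, 22 INO80, SRCAP and TIP60 and 13 ISWI symbols, 15, 19 and 5 matched a row, 1 each of the first 2 lists and 1 erythroid gene (hbba1, as ba1) by an older symbol of the RefSeq table of assembly GRCz12tu. Its coordinates belong to another build and are not printed.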

Additional observations from a re-analysis of the deposited data

Results flagged for a closer look

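Of 118 sets of 4 libraries examined, 10 held a library far from the other 3, where chance alone flags about 1 in 20. In 9 of these the library was MYCN 4. It was higher than the other MYCN libraries in smarcb1a (123.5 CPM against 84.7 to 89.5), bcl7ba (19.9 against 9.93 to 10.8), the tubulin gene tubb5 (534 against 157 to 200) and the replication gene pcna (195 against 58.1 to 59.7). It was lower in smarcd1 (161.5 CPM against 195 to 200.5), pbrm1l (45.8 against 78.5 to 84.6), brd9 (39.7 against 40.4 to 40.5), ino80db (14.2 against 21.6 to 23.0) and the erythroid gene slc4a1a (1.80 against 12.1 to 13.5). The brd9 gap was under 1 CPM and was picked out because the other 3 libraries were almost equal. In the myrAKT group, myrAKT 1 was low in smarcb1b at 16.6 CPM against 18.9 to 19.1. Without MYCN 4 the calls of smarca2, smarcd1, smarce1, pbrm1l, smarcb1b and ino80db were made as before.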

How the results depend on the processing

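Of 52 named genes tested, 40 kept direction and side of the threshold in all alternatives run, among them smarca2 (0.80 to 1.27), smarcd1 (-1.79 to -1.35) and smarce1 (-0.81 to -0.39). Library totals changed most: arid2 (0.71) and smarca4a (0.43) passed, smarcb1a turned to 0.045, brd9 to 0.27 and bcl11aa to 0.027 without passing, 3 of the 6 genes and 11 of the other 22 were higher, and medians were 0.24, 0.56 and, over all genes, 0.34. These go with that scaling shifting all genes upward. With library totals 5507 of 12126 tested genes were higher and 3348 lower. TMM factors assume that most genes do not differ or that changes balance, whereas 76.0% of tested genes were called. Neither scaling was checked against an outside standard. With the replicate block arid2 passed (0.37, adjusted p = 0.047), making 2 of the 6 genes higher. Same-numbered libraries correlated at -0.13, 0.02, 0.11 and -0.17 in their deviations from group means, so the numbers were not taken to pair the libraries. Such correlations over all tested genes cannot exclude that libraries with equal numbers share a batch. In an exact sign-flip test over these numbers (replicate block) no ratio can go below p = 0.125; the differences stayed at 0.88 (smarca2 to smarca4a), -0.88 (smarcb1b to smarcb1a), 2.36 (actl6b to actl6a), -0.76 (dpf1 to dpf2), -0.94 (dpf3 to phf10) and 0.63 (brd9 to brd7); this says nothing about their stability. Leaving out single libraries gave smarcb1a -0.42 to -0.21, smarca4a -0.030 to 0.13, smarcd3b to smarcd1 -0.17 to 0.23 and dpf3 to phf10 -1.06 to -0.80, and smarcc1b -0.018 to 0.14; the cause was not tested. The median of the 6 genes then ran from -0.21 to -0.070 and that of the other 22 from 0.083 to 0.24. Bcl11ab could not be tested under the filter that asks 4 libraries for a CPM of 1 or more. In the simulation 49 of 100 genes changed 2-fold were found at this depth and number of libraries, and smaller changes were not simulated. Only 100 genes were changed 2-fold and 100 4-fold among 12053, whereas 76.0% of all tested genes were called in the data. Adjustment of p was thus stricter in the simulation, and the share found does not measure detection in these data.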
